A study of Homo sapiens with 60 samples.

Results

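A set of 28 genes of cholesterol synthesis, uptake and export was followed in SW1783, a human astrocytoma (glial tumour) line, after 24 h with extracts of herbal medicines. The genes were chosen by name for their place in the pathway, with earlier results of these data known. Shares of the members beside shares of all genes are therefore descriptive. All 28 genes were found by symbol, each under a single Ensembl identifier, among the 60675 genes of the count table. They comprise 7 enzymes of the mevalonate segment, 11 of the sterol segment, 4 regulators, 3 carriers of sterol inside the cell and 3 target genes of the liver X receptors (LXR). Of these, 21 are known targets of the transcription factor SREBP2: the 18 enzymes, STARD4, SREBF2 and INSIG1.

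The study recorded RNA by sequencing in 60 libraries of SW1783 cells kept in Leibovitz's L-15 medium with serum. Soshiho-tang and Yijin-tang, decoctions of several herbs, were extracted with water and given at 20, 100 and 500 µg/mL. Each dose had 2 libraries for Soshiho-tang and 3 for Yijin-tang. Schisandrae Fructus (12.4, 62 and 310 µg/mL), Longan Arillus, Liriopis seu Ophiopogonis Tuber and Zizyphi Semen (20, 100 and 500 µg/mL) were ethanol extracts of single herbs with 3 libraries per dose. Polygalae Radix (1.2, 6 and 30 µg/mL) and Aucklandiae Radix (6.4, 32 and 160 µg/mL), also ethanol extracts, had 1 library per dose. A further 3 libraries came from cells given the vehicle alone, dimethyl sulfoxide at 0.1% by the labels of the samples and at another concentration by the design text. Library names start alike for Soshiho-tang and Yijin-tang, for Schisandrae Fructus and Liriopis seu Ophiopogonis Tuber, for Longan Arillus and Zizyphi Semen, for Polygalae Radix and Aucklandiae Radix, and for the vehicle. Libraries whose names start alike are called a library set here, and what that start stands for is not given in the sources used here. The 3 doses of an extract are called low, medium and high here, and each high and medium dose was set against the low dose of the same extract. The question was which of these genes differ in RNA level at the higher doses. The line is a single tumour line, and nothing in the sources says that replicate libraries came from separate cultures. The p-values therefore reflect the spread among libraries, which may be technical.

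Cells make cholesterol from acetyl-CoA, first through mevalonate to farnesyl diphosphate, then through squalene and lanosterol to cholesterol. SREBP2, made from the SREBF2 gene, drives the genes of this route. When membrane cholesterol is low, the escort protein SCAP carries SREBP2 from the endoplasmic reticulum to the Golgi, where proteases release its active part. When sterol is high, INSIG1 and INSIG2 hold SCAP back. INSIG1 is itself an SREBP2 target. Liver X receptors, activated by oxysterols, act on the other side of the balance: they switch on ABCA1 and ABCG1, which move cholesterol out of the cell, and MYLIP, which lowers uptake of lipoproteins. In the brain, astrocytes are a main source of cholesterol and pass it to neurons on particles that ABCA1 helps to load.

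Library totals ran from 18.73 to 35.52 M counts (median 25.78 M). Levels are given as CPM, the count of a gene scaled to a common library total with factors from the trimmed mean of M values (TMM). The label of the line was checked with 7 astroglial markers: VIM, SOX9 and SLC1A3 were present (medians 4910, 74.0 and 23.9 CPM over the 60 libraries), while GFAP, S100B, AQP4 and ALDH1L1 stayed under 0.5 CPM in all 60. Summed markers of hepatocytes, epithelium and endothelium reached at most 0.202, 1.02 and 1.54 CPM. Summed markers of microglia and macrophages lay between 66.5 and 274 CPM, mostly CD68, and those of neurons between 22.6 and 56.8 CPM. The Polygalae Radix high-dose library stood apart, with a TMM factor of 1.216 (others 0.939 to 1.042) and 635 CPM of VIM (others at least 3492). One of 3 Longan Arillus medium-dose libraries, replicate 3, also stood apart: the chi-square per degree of freedom against its partners was 50.8 and 55.6, beside 2.24 to 24.3 in the other pairs. No pair of libraries of a group was identical.

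All 28 genes passed the filter on low counts, which kept 17851 genes. ABCG1, the lowest of the 28, reached 0.388 CPM (10 counts in the median library) in 13 of 60 libraries. Among them were both Soshiho-tang high-dose libraries, with 11 others. Per kilobase of exon, the vehicle levels ran from 40.8 CPM for NPC2, 36.4 for INSIG1, 32.3 for CYP51A1 and 21.7 for NPC1 down to 0.948 for HSD17B7, 0.282 for TM7SF2 and 0.0453 for ABCG1. HMGCS1 (8.52), SQLE (15.2) and ABCA1 (4.44 CPM per kilobase) lay between. By GENCODE release 29 on GRCh38, the exons of 12 members lie partly under a gene on the opposite strand, and those of TM7SF2 share bases with VPS51. The kit keeps strand, but the strand setting of the counting is not given in the sources used here, so such overlaps make those counts less certain. Named pseudogenes held 12.5% as many counts as HSD17B7 itself.

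Upstream sequences were read from RefSeq (GRCh38.p14), which gave one for 24 of the 28 genes. The stretches of 3 genes are shown: HMGCS1, the first SREBP2 target followed, INSIG1, the feedback gene, and SREBF2, the SREBP2 gene. SREBF2 was chosen because it holds the only match among the 24 genes to the sterol regulatory element. Each ends just before the first base of the gene in GENCODE. Capitals mark ATTGG, the NF-Y box CCAAT read on the other strand, and, in SREBF2, a match to the sterol regulatory element TCACNCCAC. The HMGCS1 stretch is chr5:43313513-43313662 (minus strand), that of INSIG1 chr7:155297628-155297775 (plus) and that of SREBF2 chr22:41832855-41833078 (plus).
HMGCS1: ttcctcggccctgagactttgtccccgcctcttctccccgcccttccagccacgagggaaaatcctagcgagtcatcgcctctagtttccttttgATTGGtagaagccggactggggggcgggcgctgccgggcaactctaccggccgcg
INSIG1: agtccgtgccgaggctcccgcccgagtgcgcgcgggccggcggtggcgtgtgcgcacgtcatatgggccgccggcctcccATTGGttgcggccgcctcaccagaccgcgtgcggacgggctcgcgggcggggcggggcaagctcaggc
SREBF2: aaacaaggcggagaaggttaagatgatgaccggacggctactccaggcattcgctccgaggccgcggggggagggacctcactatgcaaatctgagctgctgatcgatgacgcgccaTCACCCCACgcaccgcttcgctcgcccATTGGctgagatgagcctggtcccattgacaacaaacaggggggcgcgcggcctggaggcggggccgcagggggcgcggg
In the 250 bases before the RefSeq start, searched on both strands, TCACNCCAC was found in 1 of the 24 genes (SREBF2, at -133), beside 1.09% of 27305 genes with such a sequence. CCAAT was found in 18 of 24, beside 37.0%, GGGCGG (the Sp1 box) in 23 of 24, beside 46.24%, and CACGTG (the E-box) in 4 of 24, beside 7.73%. Such matches describe the letters of these windows only.

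**Figure D1:**
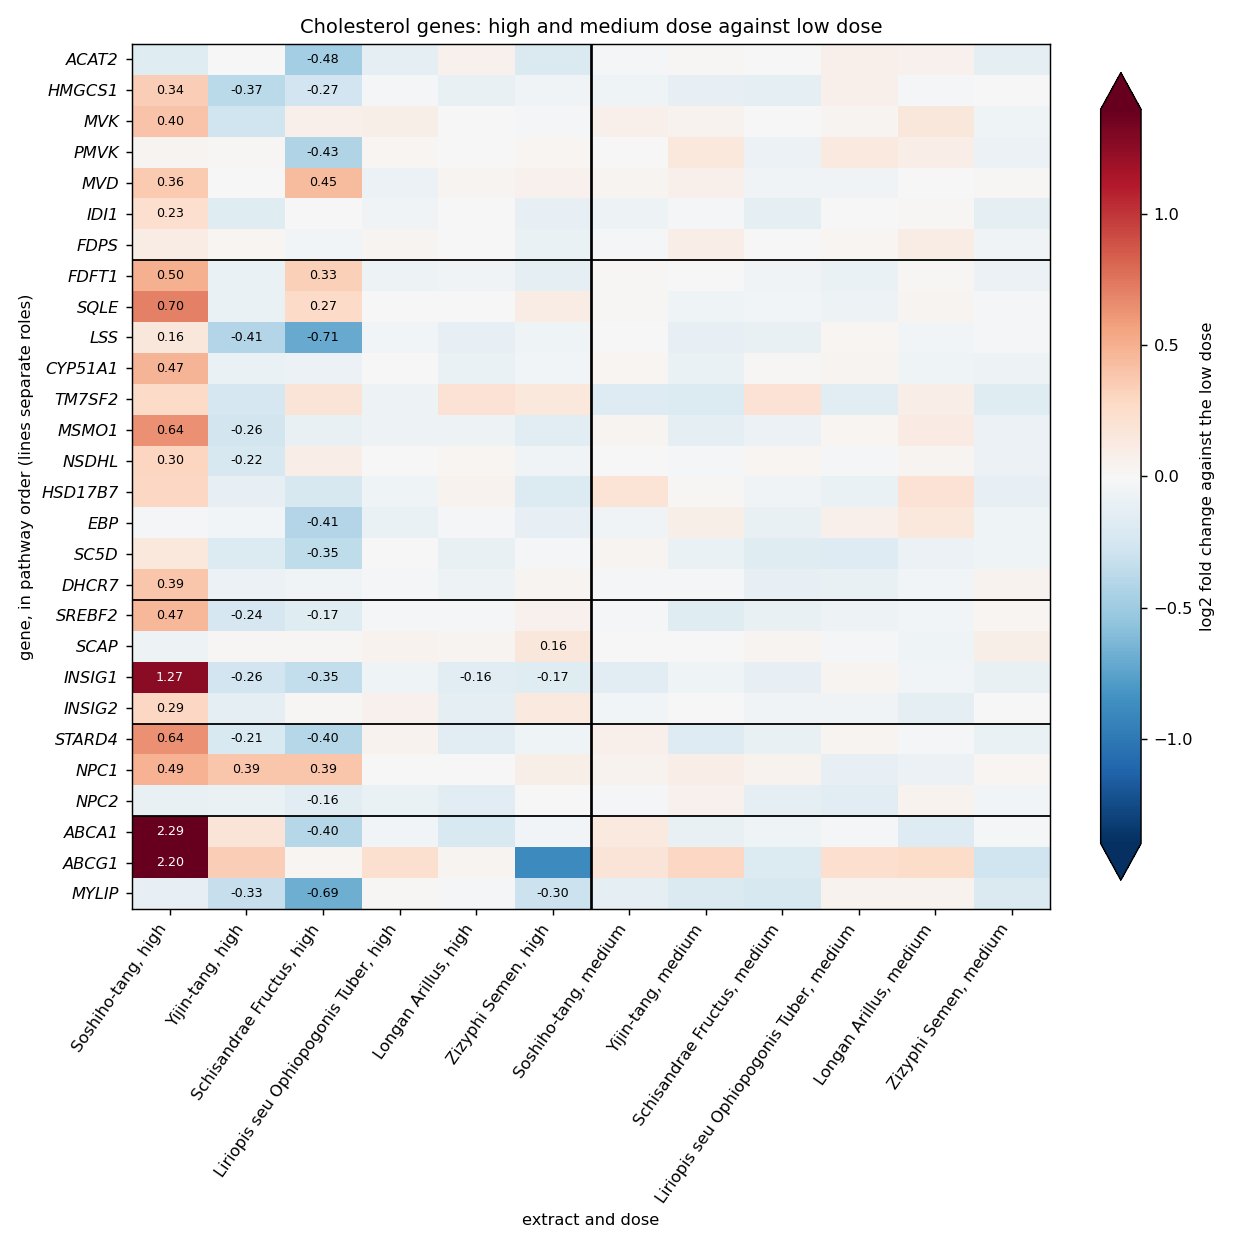
Log2 fold changes of the 28 genes, in pathway order from top to bottom, for 6 extracts at the high dose (left) and the medium dose (right) against the low dose. Printed values passed at an adjusted p of 0.05. The colours saturate beyond 1.4 on the log2 scale. The Soshiho-tang high column is the one with only rises among the printed values, and no value passed at a medium dose.

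Soshiho-tang at its high dose raised the cholesterol genes broadly. Of the 28 genes, 18 were higher than at the low dose and 0 were lower, where 9.92% of all genes tested were higher and 8.66% lower (edgeR's quasi-likelihood test, Benjamini-Hochberg adjusted over 17851 genes). The rises took in 14 of the 21 SREBP2 targets, whose median log2 fold change was 0.34, beside 0.001 over all genes. ABCA1 rose the most, followed by ABCG1, which was barely expressed, and by INSIG1. The third LXR target, MYLIP, did not pass. Each dose had 2 libraries, so the spread comes mainly from the other groups of the fit.

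Among the enzymes of the mevalonate segment, 4 of 7 rose. HMGCS1, the synthase that joins acetoacetyl-CoA and acetyl-CoA (chr5:43289395-43313512), stood at 48.6 and 51.6 CPM in high-dose libraries, against 40.8 and 38.4 CPM in low-dose libraries. The medium-dose libraries had 38.3 and 37.5 CPM, and the 3 vehicle libraries 38.9, 41.7 and 39.6 CPM. Both high-dose libraries thus lay above every low-dose and vehicle library, with a log2 fold change of 0.34 ± 0.06 (standard error here and below; adjusted p = 3.61e-05). MVK and MVD, the kinase and the decarboxylase of mevalonate, rose by 0.40 ± 0.11 and 0.36 ± 0.09, and IDI1, the isomerase of isopentenyl diphosphate, by 0.23 ± 0.08. ACAT2, which makes acetoacetyl-CoA, PMVK, the kinase after MVK, and FDPS, the farnesyl diphosphate synthase, had log2 fold changes of -0.17, 0.04 and 0.10 and did not pass.

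In the sterol segment 7 of 11 enzymes rose. SQLE, the squalene epoxidase and a rate-controlling step (chr8:124998497-125022283), reached 101 and 102 CPM in high-dose libraries, against 63.8 and 61.0 CPM in low-dose libraries. Its medium-dose libraries had 64.3 and 62.1 CPM and the vehicle libraries 63.7, 65.3 and 67.2 CPM. The high dose stood clear of all of these, at 0.70 ± 0.06 over the low dose (adjusted p = 5.55e-12). MSMO1, which oxidises the methyl groups of sterols, had 67.1 and 65.6 CPM at the high dose, against 41.0 and 44.1 CPM at the low dose (0.64 ± 0.07, adjusted p = 5.22e-09). CYP51A1, the lanosterol demethylase, had 163 and 169.5 CPM, against 117 and 122 CPM (0.47 ± 0.05, adjusted p = 1.93e-09). The groups did not overlap for either gene. FDFT1, the squalene synthase, rose by 0.50, DHCR7, a reductase of the last steps, by 0.39, NSDHL, a sterol dehydrogenase, by 0.30 and LSS, the lanosterol synthase, by 0.16. TM7SF2, HSD17B7, EBP and SC5D, other late enzymes, lay between -0.03 and 0.29 and did not pass.

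Of the 4 regulators, 3 rose. INSIG1 (chr7:155297776-155310235) stood at 307.5 and 322 CPM in high-dose libraries, against 133 and 128 CPM in low-dose libraries. The medium dose had 116 and 117 CPM and the vehicle 129, 140.1 and 129 CPM. The high-dose values were thus more than 2-fold above the low-dose, medium-dose and vehicle libraries, with a log2 fold change of 1.27 ± 0.05 (adjusted p = 5.88e-23). SREBF2 had 132 and 136 CPM, against 95.2 and 98.1 CPM (0.47 ± 0.08, adjusted p = 1.83e-05). INSIG2 rose by 0.29 ± 0.10 (adjusted p = 0.0425). SCAP, with 86.9 and 86.0 CPM at the high dose against 91.0 and 90.8 CPM at the low dose, did not pass (-0.07 ± 0.05, adjusted p = 0.335).

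Of the carriers, STARD4, which moves sterol between membranes, had 54.5 and 57.9 CPM at the high dose, against 33.8 and 38.1 CPM at the low dose (0.64 ± 0.07, adjusted p = 2.55e-09). NPC1, the membrane protein that lets cholesterol out of lysosomes, rose by 0.49 ± 0.12 (adjusted p = 0.0022). NPC2, its soluble partner, had a log2 fold change of -0.11 and did not pass.

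The LXR targets were split. ABCA1, the exporter that loads cholesterol onto apolipoproteins (chr9:104781002-104928237), had 200.2 and 217 CPM in high-dose libraries, against 41.6 and 43.5 CPM in low-dose libraries. The medium dose had 45.2 and 48.4 CPM and the vehicle 42.5, 53.2 and 55.4 CPM. The high dose stood far above every other library of the series, the next being 55.4 CPM in a vehicle library, and the log2 fold change was 2.29 ± 0.16 (adjusted p = 2.74e-15). ABCG1, a second exporter, stood at 0.769 and 1.02 CPM, against 0.158 and 0.215 CPM (2.20 ± 0.57, adjusted p = 0.00394). Outside those 2 libraries, ABCG1 reached the level of the low-count filter in 11 others. MYLIP had 10.7 and 11.6 CPM, against 11.7 and 12.4 CPM (-0.11 ± 0.10, adjusted p = 0.49), with vehicle libraries at 9.05, 10.2 and 10.5 CPM.

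The replicates of Soshiho-tang are numbered 2 and 3, so leaving 1 out leaves 1 library in a group. For those fits only log2 fold changes are given. The calls of MVK, IDI1, LSS, NSDHL, INSIG2 and ABCG1 did not hold in all of them, and fewer of all genes were called too. Without low-dose replicate 2, MVK had 0.31, IDI1 0.18, LSS 0.16, NSDHL 0.24, INSIG2 0.24 and ABCG1 2.03. Without high-dose replicate 2, MVK had 0.38, IDI1 0.26, LSS 0.165, NSDHL 0.28 and INSIG2 0.24. Without high-dose replicate 3, IDI1 had 0.20, LSS 0.15 and INSIG2 0.34. Without low-dose replicate 3, LSS had 0.16 and INSIG2 0.36. With all libraries but no filter on low counts, the calls of IDI1, LSS and INSIG2 were lost (edgeR, adjusted p 0.0673 to 0.299). By DESeq2 the INSIG2 call was lost (adjusted p = 0.0646).

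Lists of genes around the pathway were read against the 9.92% of all genes that rose in Soshiho-tang and the 8.66% that fell. Of 8 targets of SREBP1, the fatty acid counterpart of SREBP2, 7 rose and 0 fell: SCD, the stearoyl-CoA desaturase, by 1.48 ± 0.11 on the log2 scale, FASN, the fatty acid synthase, by 0.76 ± 0.09 and FADS1, a fatty acid desaturase, by 0.45 ± 0.06. Of 5 LXR receptors and further LXR targets, 4 rose: SREBF1, the SREBP1 gene, by 1.297 ± 0.09, NR1H3, which encodes LXR-alpha, by 0.73 ± 0.19 at a low level (3.03 CPM, against 1.81), LPCAT3, a phospholipid acyltransferase, by 0.39 ± 0.08, and NR1H2, which encodes LXR-beta, by 0.32 ± 0.10. Of 21 tested genes of sterol control and handling (23 listed; CH25H and GRAMD1C were filtered out), 5 rose and 3 fell. RNF145, a ubiquitin ligase, rose by 0.33 and OSBP, an oxysterol-binding carrier, by 0.38, while GRAMD1B, another carrier, fell by 0.36. Of 9 genes of the non-sterol isoprenoid branch, DHDDS (0.52) and NUS1 (0.21), which together make dolichol, rose and 0 fell.

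Yijin-tang, the other decoction, lowered part of the pathway at its high dose. Of the 28 genes, 8 were lower than at the low dose and 1 was higher, where 3.39% of all genes tested were lower and 3.61% higher. Of the 21 SREBP2 targets, 7 fell and 0 rose, with a median log2 fold change of -0.17, beside 0.00 over all genes. The fall was largest for LSS and HMGCS1.

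HMGCS1 had 29.7, 30.2 and 28.3 CPM in Yijin-tang high-dose libraries, against 37.9, 39.6 and 36.4 CPM in low-dose libraries. The medium dose lay between, with 35.0, 34.8 and 35.7 CPM, and the vehicle at 38.9, 41.7 and 39.6 CPM. The 3 high-dose libraries were below all others of the extract (-0.37 ± 0.05, adjusted p = 1.12e-06). LSS had 49.1, 45.3 and 44.99 CPM, against 61.6, 62.2 and 61.6 CPM (-0.41 ± 0.04, adjusted p = 8.2e-10). MSMO1 had 36.5, 35.7 and 35.2 CPM, against 40.4, 43.7 and 44.2 CPM (-0.26 ± 0.06, adjusted p = 0.00409). Neither gene had overlapping groups. NSDHL fell by 0.22 (adjusted p = 0.0492). SQLE had 57.0, 58.9 and 55.4 CPM, against 60.8, 60.3 and 61.7 CPM, and did not pass (-0.10 ± 0.05, adjusted p = 0.338), although its groups did not overlap.

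Among the regulators, INSIG1 had 122, 122 and 118 CPM in Yijin-tang high-dose libraries, against 152, 141 and 142 CPM in low-dose libraries, with 141, 137 and 138 CPM at the medium dose (high against low -0.26 ± 0.04, adjusted p = 2.38e-05). SREBF2 had 92.0, 86.2 and 81.2 CPM, against 106, 101.4 and 98.3 CPM (-0.24 ± 0.07, adjusted p = 0.0184). STARD4 fell by 0.21 ± 0.06 (adjusted p = 0.0203). The gene that rose was NPC1, with 295, 279.5 and 274 CPM, against 219.7, 217 and 209 CPM (0.39 ± 0.10, adjusted p = 0.00679).

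Of the LXR targets in Yijin-tang, ABCA1 had 51.6, 49.9 and 50.02 CPM at the high dose, against 47.5, 44.5 and 41.2 CPM at the low dose, and did not pass (0.18 ± 0.13, adjusted p = 0.514). ABCG1 stayed between 0.278 and 0.513 CPM over the 9 libraries. MYLIP, a ubiquitin ligase, had 11.4, 10.35 and 10.7 CPM, against 14.2, 13.35 and 13.0 CPM (-0.33 ± 0.08, adjusted p = 0.00505). The vehicle libraries, at 9.05 to 10.5 CPM, lay below all 3 low-dose libraries and overlapped the high dose, so against the vehicle MYLIP was 0.12 higher and did not pass (adjusted p = 0.365). NSDHL lost its call without any 1 of the 6 libraries (adjusted p 0.0811 to 0.195), SREBF2 without high-dose replicate 2 or 3 or low-dose replicate 1 or 2 (0.0511 to 0.152), and STARD4 without high-dose replicate 2 or 3 or low-dose replicate 1 (0.0839 to 0.129). Without the filter on low counts NSDHL (0.0889) and STARD4 (0.116) were lost. Of 8 SREBP1 targets, 3 fell: LPIN1, a phosphatidate phosphatase, by 0.31, SCD by 0.29 and FADS2, a fatty acid desaturase, by 0.18. Of 21 genes of sterol control and handling, GRAMD1B rose (0.53) and 0 fell.

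**Figure D2:**
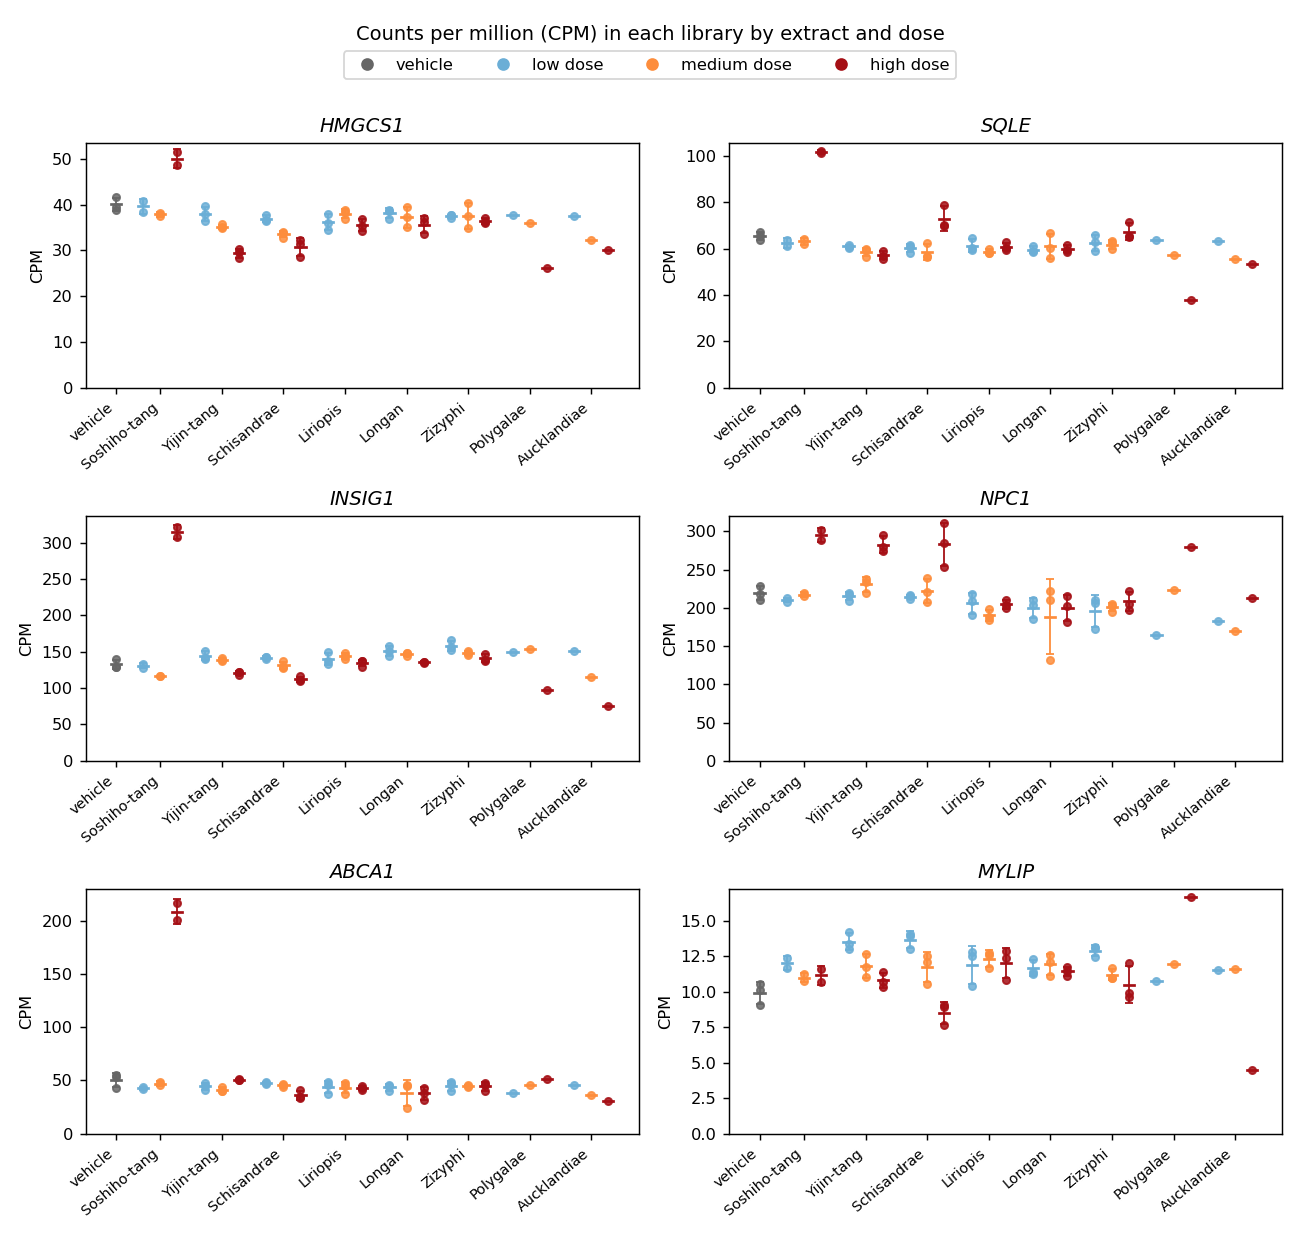
CPM of 6 genes in each library, by extract and, within it, by dose from low to high, with the vehicle at the left. Points are libraries, horizontal bars group means and vertical bars SDs. Both Soshiho-tang high-dose libraries stand above all others for HMGCS1, SQLE, INSIG1 and ABCA1, at 200.2 and 217 CPM for ABCA1.

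The decoctions shared doses and solvent, and their library names start alike, so the difference between their high-against-low changes was tested itself. It passed for 16 of 28 genes, all with the more positive change in Soshiho-tang, where 5.1% of all genes had such a difference and 4.3% the opposite one. INSIG1 differed by 1.53 ± 0.07 on the log2 scale (Soshiho-tang minus Yijin-tang, adjusted p = 2.16e-21), ABCA1 by 2.10 ± 0.20 (adjusted p = 1.22e-10), MSMO1 by 0.90 ± 0.10, STARD4 by 0.85 ± 0.09, SQLE by 0.80 ± 0.08, HMGCS1 by 0.71 ± 0.08 and SREBF2 by 0.70 ± 0.10. Of the 21 SREBP2 targets, 14 differed, with a median of 0.53. NPC1, which rose with both decoctions, differed by 0.10 ± 0.15 (adjusted p = 0.822), an interval of -0.21 to 0.40 at 2 standard errors. ABCG1 did not pass (1.85 ± 0.75, adjusted p = 0.126), nor did MYLIP (0.21 ± 0.13, adjusted p = 0.367). Without 1 library the calls of MVD (any of the 10), INSIG2 (8 of the 10) and IDI1 (Soshiho-tang low-dose replicate 2) were lost. Fits without a Soshiho-tang library have 1 library in a group. The calls of MVD (adjusted p = 0.0945) and INSIG2 (0.142) were also lost without the filter on low counts.

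**Figure D3:**
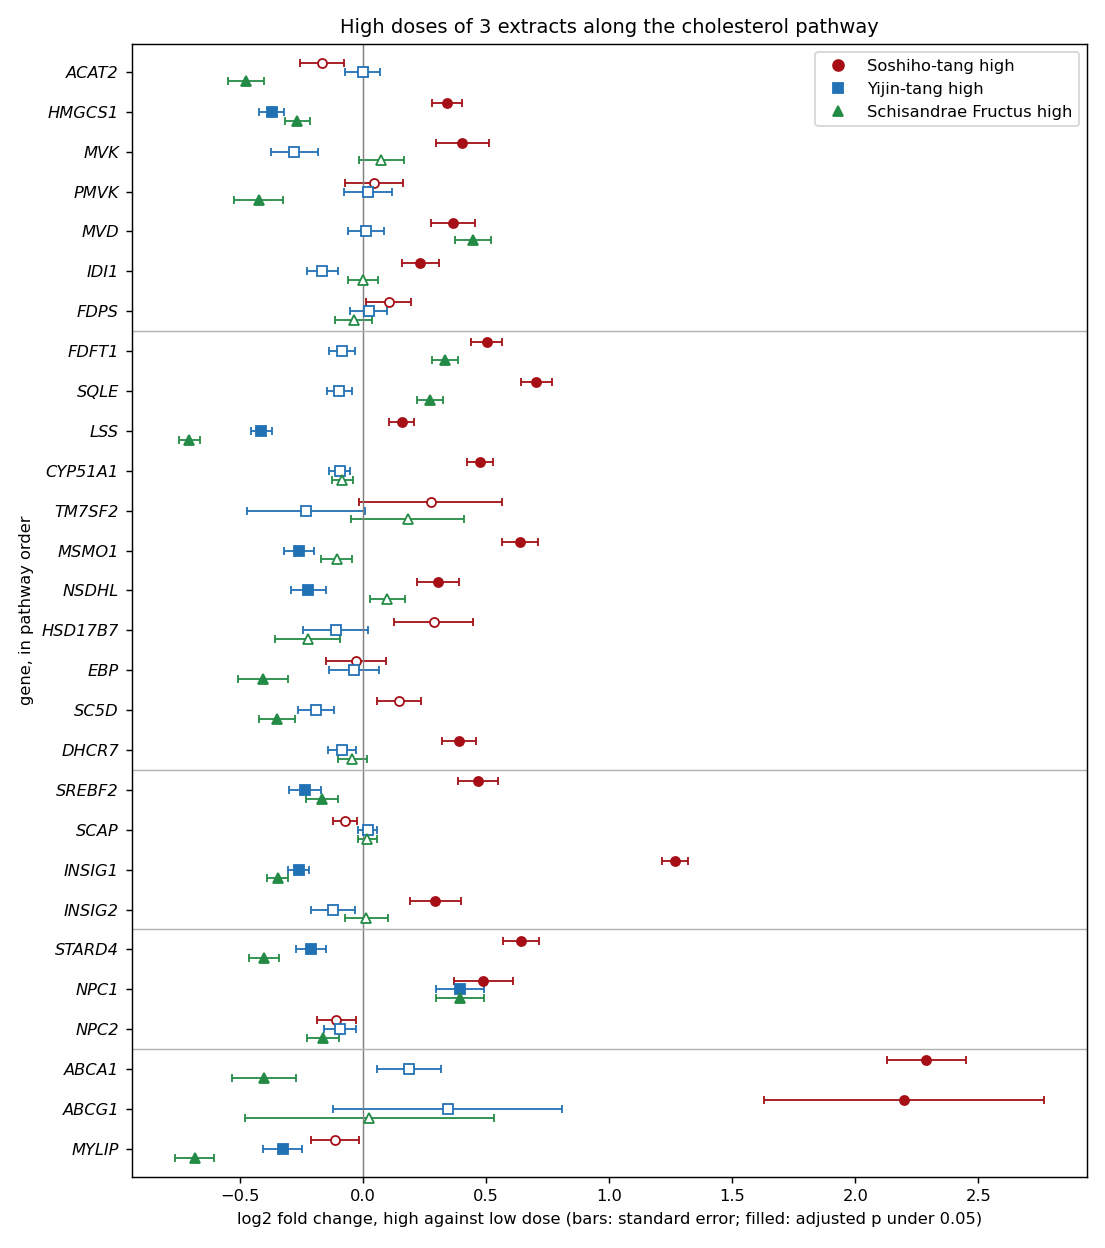
Log2 fold changes, high against low dose, of the 28 genes in pathway order for Soshiho-tang, Yijin-tang and Schisandrae Fructus. Bars are standard errors and filled marks passed at an adjusted p of 0.05. Soshiho-tang lies to the right for most enzymes, Yijin-tang near or left of 0, and Schisandrae Fructus on both sides, with LSS at -0.71 and MVD at 0.45.

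Schisandrae Fructus at 310 µg/mL changed the pathway in both directions. Of the 28 genes, 12 were lower and 4 were higher than at 12.4 µg/mL. This extract changed much of the transcriptome, with 23.6% of all genes tested lower and 22.3% higher, so the rises among the members were fewer than the background share and the falls more. Of the 21 SREBP2 targets, 9 fell and 3 rose, and their median log2 fold change was -0.11, beside -0.002 over all genes.

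At the start of the pathway, ACAT2 had 19.9, 19.9 and 22.2 CPM in Schisandrae Fructus high-dose libraries, against 29.9, 27.9 and 28.2 CPM in low-dose libraries (-0.48 ± 0.07, adjusted p = 7.25e-07). HMGCS1 had 31.4, 28.6 and 32.2 CPM, against 36.5, 36.4 and 37.7 CPM, with 34.1, 32.8 and 33.8 CPM at the medium dose (high against low -0.27 ± 0.05, adjusted p = 2.67e-05). PMVK fell by 0.43 ± 0.10. MVD went the other way, with 26.0, 29.2 and 29.7 CPM, against 20.3, 22.1 and 19.6 CPM (0.45 ± 0.07, adjusted p = 1.64e-06). So neighbouring steps of the mevalonate segment changed in opposite directions, and none of these groups overlapped.

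In the sterol segment, the 2 enzymes that lead to squalene epoxide rose and the next one fell. FDFT1 had 123, 113 and 121 CPM in Schisandrae Fructus high-dose libraries, against 98.2, 90.5 and 93.3 CPM in low-dose libraries (0.33 ± 0.05, adjusted p = 9.8e-07). SQLE had 79.0, 70.1 and 69.7 CPM, against 58.1, 61.6 and 60.9 CPM (0.27 ± 0.05, adjusted p = 2.82e-05). LSS, which closes squalene epoxide to lanosterol, had 33.5, 35.2 and 38.2 CPM, against 56.9, 59.1 and 58.0 CPM (-0.71 ± 0.04, adjusted p = 1.18e-17). LSS was the largest fall among the 28 genes in this extract. EBP, a sterol isomerase, fell by 0.41 ± 0.10 and SC5D, a sterol desaturase, by 0.35 ± 0.07. CYP51A1, MSMO1, NSDHL and DHCR7 lay between -0.11 and 0.10 and did not pass.

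INSIG1 had 116, 109 and 110.5 CPM in Schisandrae Fructus high-dose libraries, against 143, 139.6 and 142.5 CPM in low-dose libraries (-0.35 ± 0.04, adjusted p = 4.97e-09). Its medium-dose libraries, at 137, 129 and 127 CPM, lay between. SREBF2 fell by 0.17 ± 0.07 (adjusted p = 0.0336), and SCAP and INSIG2 had log2 fold changes of 0.02 and 0.01. STARD4 had 30.1, 25.6 and 26.0 CPM, against 33.4, 38.8 and 35.3 CPM (-0.40 ± 0.06, adjusted p = 5.03e-07). NPC1 had 311, 284 and 254 CPM, against 216, 216 and 212 CPM (0.39 ± 0.10, adjusted p = 0.000854), while NPC2 fell by 0.16 ± 0.07 (adjusted p = 0.0385).

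Both well-expressed LXR targets were lower in Schisandrae Fructus. MYLIP (chr6:16129125-16148248) had 9.06, 7.64 and 8.90 CPM in high-dose libraries, against 13.0, 14.1 and 14.0 CPM in low-dose libraries, with 12.1, 10.6 and 12.5 CPM at the medium dose (high against low -0.69 ± 0.08, adjusted p = 1.66e-09). The vehicle libraries lay below every low-dose library for MYLIP and overlapped the high dose. They form a library set of their own, so library set and treatment cannot be told apart in that comparison. The MYLIP call was kept with the vehicle as reference. ABCA1 had 40.7, 34.3 and 33.0 CPM, against 47.2, 46.5 and 48.8 CPM (-0.40 ± 0.13, adjusted p = 0.00993). ABCG1 stayed at 0.0400 to 0.406 CPM over the 9 libraries. The calls lost with 1 library left out were ABCA1 (without high-dose replicate 3, adjusted p = 0.0576), SREBF2 (high-dose replicate 3 or low-dose replicate 2 or 3, 0.115 to 0.163) and NPC2 (high-dose replicate 2 or 3 or low-dose replicate 1 or 2, 0.0667 to 0.177). Without the filter on low counts SREBF2 (0.0772) and NPC2 (0.089) were lost.

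Lists around the pathway were read against the 22.3% of all genes that rose with Schisandrae Fructus and the 23.6% that fell. On them, 7 of 8 SREBP1 targets fell (FADS2 by 0.65, LPIN1 by 0.57, SCD by 0.34) and FASN rose by 0.19. All 5 LXR receptors and further targets changed: NR1H3 (0.54) and NR1H2 (0.48), the receptor genes, rose, while SREBF1 fell by 0.55, LPCAT3 by 0.46 and SMPDL3A, a phosphodiesterase gene at a low level (1.395 CPM, against 2.54), by 0.88. Of 21 genes of sterol control and handling, 5 rose and 9 fell. RNF145 fell by 0.60, GRAMD1A, a carrier from plasma membrane to endoplasmic reticulum, rose by 0.62 and OSBP by 0.46. Of 9 isoprenoid-branch genes, 5 rose and 0 fell, led by FNTA (0.54) and FNTB (0.35), the subunits of farnesyltransferase.

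Liriopis seu Ophiopogonis Tuber had library names that start like those of Schisandrae Fructus, and none of its 28 genes passed. No gene at all was called at its high dose (0% in either direction; edgeR). Of the 28 members, 0 had an unadjusted p under 0.05, beside 463 of all genes, and DESeq2 also called 0 members. HMGCS1 had 36.9, 35.4 and 34.2 CPM at the high dose, against 34.4, 36.01 and 38.0 CPM at the low dose. INSIG1 had 137, 129 and 137 CPM, against 134, 149 and 137 CPM, and SQLE 59.5, 60.4 and 62.7 CPM, against 64.5, 60.3 and 59.2 CPM. The groups overlapped for all 3 genes. ABCA1 (40.7 to 44.7 CPM, against 37.3 to 48.5 CPM), MYLIP (10.8 to 12.9 against 10.4 to 12.8 CPM) and ABCG1 (0.0472 to 0.432 against 0.131 to 0.233 CPM) overlapped too.

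The difference between the high-against-low changes of Schisandrae Fructus and Liriopis seu Ophiopogonis Tuber passed for 12 of 28 genes, although the doses differed (310 against 500 µg/mL). In Schisandrae Fructus 4 were more positive, where 15% of all genes were, and 8 more negative, where 16.1% were. They included MYLIP (-0.70 ± 0.11), LSS (-0.67 ± 0.06), MVD (0.52 ± 0.10), STARD4 (-0.45 ± 0.09) and FDFT1 (0.40 ± 0.07). INSIG1 differed by -0.29 ± 0.06, HMGCS1 by -0.24 ± 0.07 (lost without the filter on low counts, adjusted p = 0.142) and SQLE by 0.28 ± 0.07, while ABCA1 did not pass (-0.37 ± 0.19, adjusted p = 0.133). The call of NPC1 (0.40 ± 0.14) was lost without Schisandrae Fructus high-dose replicate 1 (adjusted p = 0.0791) or Liriopis low-dose replicate 1 (0.0604), and that of SC5D (-0.35 ± 0.10) without Schisandrae Fructus high-dose replicate 2 (0.0501).

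Longan Arillus and Zizyphi Semen at 500 µg/mL touched few of the 28 genes, and INSIG1 was slightly lower with both. In Longan Arillus it had 136, 136 and 134 CPM at the high dose, against 151, 145 and 158 CPM at the low dose (-0.16 ± 0.04, adjusted p = 0.0456), and the groups did not overlap. It was the 1 lower member and 0 were higher, where 0.599% of all genes were lower and 0.342% higher. In Zizyphi Semen INSIG1 had 137, 139 and 147 CPM, against 166, 152 and 156 CPM (-0.17 ± 0.04, adjusted p = 0.00972). MYLIP had 11.99, 9.64 and 9.88 CPM, against 12.5, 13.1 and 13.2 CPM (-0.30 ± 0.08, adjusted p = 0.0177). SCAP had 90.8, 102 and 99.7 CPM, against 83.5, 86.7 and 91.0 CPM, groups that overlap slightly (0.16 ± 0.04, adjusted p = 0.00791). These 2 lower members and 1 higher member stood beside 3.76% of all genes lower and 2.02% higher.

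None of these 4 calls in Longan Arillus and Zizyphi Semen was firm. In Longan Arillus the INSIG1 call held only without low-dose replicate 2 and was lost without any of the other 5 libraries (adjusted p 0.0975 to 0.249). In Zizyphi Semen 1 or 2 genes passed with 1 library left out: INSIG1 was lost without high-dose or low-dose replicate 1 (0.0559 and 0.0955), MYLIP without high-dose or low-dose replicate 2 or 3 (0.0543 to 0.14), and SCAP without high-dose replicate 2 or 3 or low-dose replicate 1 (0.064 to 0.128). Without the filter on low counts, or with only the libraries compared, 0 of the 4 passed. Against the vehicle, the sign of all 4 was turned: INSIG1 was 0.02 higher in Longan Arillus and 0.08 higher in Zizyphi Semen, MYLIP 0.07 higher and SCAP lower by a log2 value of -0.02. The vehicle libraries form a library set of their own, so whatever the set stands for and the treatment cannot be told apart in that comparison.

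HMGCS1 and SQLE did not pass in either extract. HMGCS1 had 37.15, 33.5 and 36.1 CPM with Longan Arillus at the high dose, against 36.8, 38.9 and 38.6 CPM, and 37.1, 35.97 and 36.2 CPM with Zizyphi Semen, against 37.1, 37.6 and 37.7 CPM. SQLE had 61.5, 59.6 and 58.6 CPM with Longan Arillus, against 58.5, 59.2 and 61.1 CPM, and 65.4, 71.6 and 64.9 CPM with Zizyphi Semen, against 65.8, 63.0 and 58.8 CPM. Log2 fold changes of both genes in both extracts lay between -0.10 and 0.10. ABCA1 lay between 31.5 and 48.6 CPM in the high-dose and low-dose libraries of both. ABCG1 had 0.0508, 0.282 and 0.278 CPM with Zizyphi Semen at the high dose, against 0.393, 0.354 and 0.405 CPM, which did not pass (-0.89 ± 0.54, adjusted p = 0.405). Of the surrounding genes, CYP46A1, which hydroxylates cholesterol in neurons, averaged 1.57 CPM at the high dose of Zizyphi Semen, against 3.21 CPM, and fell by 1.05 ± 0.17, SREBF1 fell by 0.30 and FNTB rose by 0.22. In Longan Arillus FADS1 fell by 0.27.

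The difference between these 2 extracts passed for 0 of 28 genes (edgeR), where 2.55% of all genes were more positive in Longan Arillus and 1.41% more negative. DESeq2 also called 0, 4 of 28 members had an unadjusted p under 0.05 beside 15.7% of all genes, and 1 passed without Longan Arillus high-dose replicate 1. INSIG1 differed by 0.01 ± 0.06 (interval -0.11 to 0.13 at 2 standard errors) and MYLIP by 0.28 ± 0.11 (adjusted p = 0.203).

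At the medium doses, 0 of the 28 genes passed in any of the 6 extracts, by edgeR or by DESeq2. Of all genes, 0.0112% were called in Soshiho-tang, 0.0224% in Yijin-tang, 0.0392% in Schisandrae Fructus and 0% in Longan Arillus, Zizyphi Semen and Liriopis seu Ophiopogonis Tuber. At an unadjusted p under 0.05, 8 of 28 members stood beside 4.66% of all genes in Schisandrae Fructus, 7 beside 5.13% in Yijin-tang and 4 beside 3.81% in Zizyphi Semen. There were 2 beside 7.28% in Liriopis seu Ophiopogonis Tuber, 1 beside 2.63% in Soshiho-tang and 0 beside 5.73% in Longan Arillus. Even the strongest Soshiho-tang responders stood near the low dose: ABCA1 at 0.14 ± 0.16, SQLE at 0.02 ± 0.06 and INSIG1 at -0.16 ± 0.05. In Longan Arillus, medium-dose replicate 3 was low for ABCA1 (24.0 CPM, beside 45.3 and 44.6) and NPC1 (132 CPM, beside 222 and 211). Without that library the count stayed at 0.

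NPC1 was the member that rose with 3 extracts, Soshiho-tang, Yijin-tang and Schisandrae Fructus, by 0.49, 0.39 and 0.39. Its Soshiho-tang high-dose libraries had 289 and 302 CPM, against 208 and 212 CPM, and the vehicle libraries had 209.9, 219 and 229 CPM. Every high-dose library of the 3 extracts, from 254 to 311 CPM, lay above every vehicle library. With Zizyphi Semen, Longan Arillus and Liriopis seu Ophiopogonis Tuber its log2 fold changes were 0.08, -0.00 and -0.01, and it did not pass. Exons of NPC1 share 604 bases with RMC1 on the opposite strand.

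Polygalae Radix and Aucklandiae Radix had 1 library per dose, so their values carry no test. A gene was counted where its log2 CPM (with a prior count of 2) differed by at least 2-fold and the larger CPM reached 10. In Polygalae Radix at 30 µg/mL, 10 of 28 genes were counted as lower and 0 as higher than at 1.2 µg/mL, beside 8.69% of all genes lower and 4.08% higher. The median over the 28 genes was -0.77, beside 0.019 over all genes. The high-dose library is the one that stood apart in TMM factor and VIM; the part of this in the values below was not tested.

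The lower genes were spread along the enzymes. ACAT2 had 34.6, 25.4 and 8.19 CPM at the low, medium and high dose of Polygalae Radix. DHCR7 had 33.0, 24.7 and 8.25 CPM, and FDFT1 109, 86.8 and 36.7 CPM. The log2 differences of these 3, high against low, were -2.07, -1.99 and -1.57. EBP (-1.42), MVK (-1.37), FDPS (-1.20), MSMO1 (-1.15), PMVK (-1.06), NSDHL (-1.04) and LSS (-1.03) made up the rest. HMGCS1 (37.8, 36.01 and 26.1 CPM), SQLE (63.7, 57.4 and 37.7 CPM) and INSIG1 (149.9, 153 and 97.3 CPM) were lower at the high dose without reaching 2-fold. ABCA1 (37.7, 46.0 and 51.7 CPM), MYLIP (10.8, 11.97 and 16.7 CPM) and NPC1 (165, 223 and 279.7 CPM) were higher, also short of 2-fold, and ABCG1 had 0.241, 0.177 and 0.254 CPM. At the medium dose 0 members were counted, beside 0.028% of all genes lower and 0.0112% higher.

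In Aucklandiae Radix at 160 µg/mL, 2 of 28 genes were counted as lower and 0 as higher than at 6.4 µg/mL, beside 2.6% of all genes lower and 1.35% higher. Differences were below 0 for 16 members and above 0 for 12. INSIG1 had 150.3, 116 and 74.8 CPM at the low, medium and high dose (high against low -1.01), and MYLIP 11.55, 11.6 and 4.47 CPM (-1.36). INSIG1 was thus lower at each higher dose, and MYLIP at the high dose alone. SREBF2 (88.3, 66.2 and 48.5 CPM), DHCR7 (30.2, 24.1 and 16.1 CPM), LSS (57.5, 45.2 and 34.5 CPM) and ABCA1 (45.3, 36.2 and 30.6 CPM) ran down with dose without reaching 2-fold. PMVK (16.6, 23.2 and 30.8 CPM), INSIG2 (8.19, 9.70 and 13.4 CPM), HSD17B7 (4.07, 5.18 and 6.52 CPM), NSDHL (35.5, 40.04 and 53.7 CPM), NPC2 (108, 125 and 158 CPM) and CYP51A1 (121, 137 and 172 CPM) ran up, also short of 2-fold. HMGCS1 had 37.5, 32.3 and 30.1 CPM and SQLE 63.2, 55.3 and 53.4 CPM, and ABCG1 stayed at 0.0836 to 0.336 CPM. At the medium dose 0 members were counted, beside 0.0504% of all genes lower and 0.0336% higher.

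**Figure D4:**
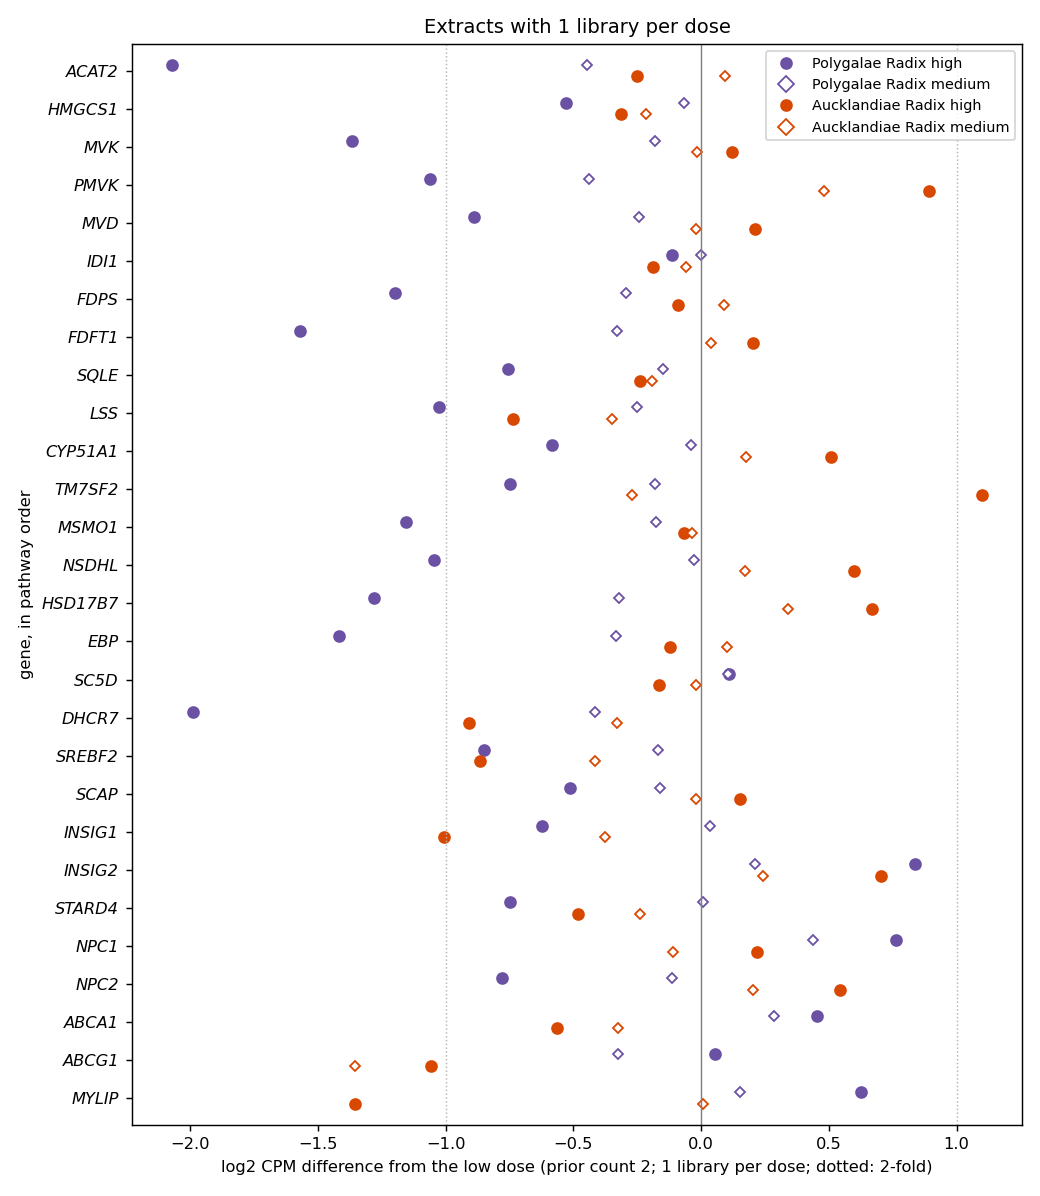
Log2 CPM differences of the 28 genes from the low dose in Polygalae Radix and Aucklandiae Radix, high and medium dose, with 1 library per dose and no error. Dotted lines mark 2-fold. Polygalae Radix high lies to the left for 22 of 28 genes. HSD17B7 in Polygalae Radix high, and TM7SF2 and ABCG1 in Aucklandiae Radix, lie past 2-fold but are under 10 CPM and not counted.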

How the data were processed

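Values were expected counts (estimated reads per gene), deposited by the authors as a single table. The submitters' processing notes name RSEM 1.3.3, STAR 2.7.3a, Trim Galore 0.6.5 and FastQC 0.11.9 with genome build hg38; which annotation release was used is not given in the sources used here. Of the values, 10.86% were not whole, and all were rounded to whole numbers. A joint edgeR model took in the 19 groups with replicates (54 libraries), using edgeR 4.0.16 (R 4.3.3), 1 coefficient per group, TMM scaling, edgeR's default low-count filter (17851 genes) and the quasi-likelihood F test (35 residual degrees of freedom). P-values were Benjamini-Hochberg adjusted over all genes tested, with 0.05 as the threshold; the standard error is the absolute log2 fold change divided by the square root of F. CPM were computed over all 60 libraries, total counts of which set the precision of low genes. The code was tested on simulated counts.

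Members and lists were chosen with earlier results of these data known. All 28 members were accounted for; HMGCS1, INSIG1, SQLE and the LXR targets were followed in every group, with up to 3 further members of lowest adjusted p in each direction and up to 3 genes per surrounding list. In some lists with few called genes further ones are named, and not every counted gene is named. Alternatives were DESeq2 1.42.0 (test, and size factors), no low-count filter, only the libraries compared, each library left out, a replicate block, the vehicle as reference and, for single libraries, a prior count of 0.5 and a 1.5-fold limit. Sequences of proteins were not used here.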

Additional observations from a re-analysis of the deposited data

Results flagged for a closer look

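A group of 7 genes had changes in opposite directions with the 2 decoctions, each past the threshold on its own and in the test of the difference (high against low, Soshiho-tang minus Yijin-tang, edgeR's quasi-likelihood test). The differences on the log2 scale were 1.53 for INSIG1 (1.27 in Soshiho-tang, -0.26 in Yijin-tang), 0.90 for MSMO1 (0.64 and -0.26), 0.85 for STARD4 (0.64 and -0.21), 0.71 for HMGCS1 (0.34 and -0.37), 0.70 for SREBF2 (0.47 and -0.24), 0.57 for LSS (0.16 and -0.41) and 0.53 for NSDHL (0.30 and -0.22). All libraries of the high dose lay beyond all libraries of the low dose for these 7 genes in both decoctions. The 7 genes were picked for passing those tests, so this separation adds no support. The share of all genes with such opposite changes, or with such separation, was not counted. The own changes of LSS and NSDHL in Soshiho-tang and of NSDHL, SREBF2 and STARD4 in Yijin-tang were lost with 1 library left out, while the differences of all 7 passed in every such fit.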

How the results depend on the processing

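With 1 library left out, the counts of members called ran from 6 to 8 in Yijin-tang high and 1 to 2 in Zizyphi Semen high. Of all genes, 1249 and 1031 were called there with all libraries. Without Yijin-tang high-dose replicate 1, 1022 of all genes were called in Yijin-tang high. The member counts ran from 13 to 16 in Schisandrae Fructus high (7292 to 7801 of all genes, 8195 with all libraries). In Longan Arillus high they ran from 0 to 1 (90 to 107 of all genes, 168 with all libraries). For Schisandrae Fructus minus Liriopis seu Ophiopogonis Tuber they ran from 11 to 12 (4926 to 5479 of all genes, 5550 with all libraries). For Longan Arillus minus Zizyphi Semen they ran from 0 to 1 (474 to 702, 708 with all libraries). Liriopis seu Ophiopogonis Tuber high and the medium doses of extracts with 3 libraries per dose had 0. Leaving out a Soshiho-tang library leaves 1 library in a group, so no count is given for those fits. Without the low-count filter, and with only the libraries compared, Longan Arillus high and Zizyphi Semen high had 0 called members; the first setting tests more genes and the second uses fewer samples. With the vehicle as reference, library set and treatment cannot be told apart, and 729 to 8940 of 17851 genes were called. Members called were 1 in Liriopis seu Ophiopogonis Tuber high (beside 729 of all genes), 6 in Longan Arillus high (beside 2833) and 0 in Zizyphi Semen high. At the medium dose they were 1 in Soshiho-tang (beside 747), 5 in Liriopis seu Ophiopogonis Tuber (beside 2311) and 2 in Schisandrae Fructus (beside 960). Longan Arillus had 6 (beside 4495), Yijin-tang 3 and Zizyphi Semen 1 at that dose. Where no count of all genes is given beside a member count, it lay between 729 and 8940. The member counts are not read as changes of the members. Against the vehicle 38 calls were kept, 5 were reversed and 4 became weaker. Reversed were MYLIP in Yijin-tang high (0.12) and Zizyphi Semen high (0.0738) and INSIG1 in Longan Arillus high (0.0205) and Zizyphi Semen high (0.0796). SCAP in Zizyphi Semen high (-0.0201) was also reversed. Weaker in edgeR were MSMO1 (adjusted p = 0.0521) and NSDHL (0.152) in Yijin-tang high, INSIG2 in Soshiho-tang high (0.106) and NPC2 in Schisandrae Fructus high (0.0574). The cause was not tested. At a limit of 1.5-fold, 19 members were counted in Polygalae Radix high (16 lower and 3 higher, beside 16.0% and 12.4% of all genes) and 8 in Aucklandiae Radix high (5 lower and 3 higher, beside 7.11% and 6.11%). Over all genes, 59 to 178 were called without the low-count filter at the 6 medium doses and 73 in Liriopis seu Ophiopogonis Tuber high (0 to 7 with it), and with only the libraries compared 2718 for Soshiho-tang minus Yijin-tang (1678 otherwise), 359 for Longan Arillus minus Zizyphi Semen (708), 10 in Longan Arillus high (168) and 353 in Zizyphi Semen high (1031). DESeq2 size factors kept all 75 single-gene calls, the DESeq2 test 72 of 74, only the libraries compared 71 of 75 and no low-count filter 61 of 75. Replicate numbers showed little pairing of the samples, though this check cannot exclude it. Correlations of same-numbered libraries ran from -0.05 to 0.25 over 34 pairs, and 1 of 12 comparisons had all of them over 0.1. That was Liriopis seu Ophiopogonis Tuber medium against low (0.101 to 0.174), where libraries numbered differently had -0.103 to 0.003. With the replicate number as a block, 74 of 75 calls were kept, and counts were 18 for Soshiho-tang high, 8 for Yijin-tang high and 16 for Schisandrae Fructus high; the lost one was NSDHL in Yijin-tang high (adjusted p = 0.0547). Depth limits ABCG1 (at most 1.02 CPM) and TM7SF2 (at most 1.61 CPM).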
